A study of Homo sapiens with 21 samples.

Results

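AMPA, aminomethylphosphonic acid, is the main product formed when soil microbes break down the herbicide glyphosate, and it differs from glyphosate by lacking the carboxymethyl group on the nitrogen. The experiment described here compared C3A cells, a human liver tumour line cloned from HepG2, after 48 h with 34 µM AMPA (3.7 µg/mL) with C3A cells that received no exposure. Libraries were chosen by their labels, which gave 3 AMPA libraries and 6 unexposed libraries, 9 of the 21 in the series. The culture time of the unexposed cells was not stated. The remaining 12 libraries came from 48 h exposures with 3 libraries each: glyphosate at 5.6 µM (0.95 µg/mL), the herbicide 2,4-D at 2.5 µM (0.56 µg/mL), a mixture of glyphosate and 2,4-D, and a mixture of AMPA and 2,4-D. In a mixture each compound had the concentration it had alone, and all groups were the same cell line without any genetic change named in the labels. Gene expression was measured by RNA sequencing and given as FPKM, the fragments of a gene divided by its length and by a scaling total of the library. That total was not the plain number of recovered reads, as described under processing. All 13405 genes with at least 1 FPKM in at least 3 libraries were tested, of 28808 genes listed.

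Cells answer damage to their proteins, membranes or energy supply through a set of partly separate transcription programmes. Misfolded protein in the cytosol releases HSF1, which switches on heat shock chaperones, whereas misfolded protein in the endoplasmic reticulum activates ATF6, IRE1 and PERK and with them the chaperones of that compartment. PERK and sensors of amino acid shortage, viral RNA and haem shortage phosphorylate eIF2 alpha and raise ATF4, the integrated stress response. Electrophiles and peroxides release NRF2 from KEAP1, metals act through MTF1 on the metallothioneins, DNA damage stabilises p53, low oxygen stabilises HIF1 and HIF2, and growth factor or stress kinases induce immediate early genes within minutes. In the liver these programmes protect cells that carry a heavy load of protein secretion and of foreign compounds.

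Recovered read numbers ran from 16.53 to 18.11 M per AMPA library and from 17.41 to 19.77 M per unexposed library. The labelled cell type was checked by its markers: all 10 hepatocyte and hepatoma markers were tested, and their summed FPKM was 12829 to 13419 with AMPA, 7079 to 7423 in unexposed replicates 1 to 3 and 10639 to 11923 in unexposed replicates 4 to 6. Of 7 endothelial markers none passed the filter, with an AMPA sum of 0.149 to 0.212 FPKM, and of 8 leukocyte markers only LYZ passed, while PTPRC, CD163 and CD3E were not listed in the tables. The sum of the leukocyte list was 587 to 626 FPKM with AMPA, 324 to 344 for the first 3 unexposed replicates and 568 to 615 for the last 3. Of 6 bile duct markers 4 passed, with sums of 550 to 570 FPKM with AMPA, 687 to 748 for the first 3 unexposed replicates and 369 to 388 for the last 3, and of 8 stellate cell and fibroblast markers 2 passed, with sums of 15.0 to 16.4, 16.5 to 18.3 and 22.8 to 24.9 FPKM in the same order. The part of these markers in other results was not tested. The unexposed libraries fell into sets, replicates 1 to 3 and replicates 4 to 6, between which 4239 genes differed. The labels give no batch for these sets, and counts are therefore also given against each set alone. Both of these comparisons use the same 3 AMPA libraries. Genes for cytosolic ribosomal proteins held 9.17 to 9.5% of FPKM with AMPA, 6.73 to 7.87% in unexposed cells and up to 9.66% in the other exposed libraries, and the share of genes encoded in mitochondria overlapped, at 20.72 to 23.85% against 21.64 to 24.96%. Whether exposed and unexposed cells were processed together is not stated, so exposure and any batch shared by the exposed libraries cannot be told apart. The labels do not say that replicates were separate cultures, and the p-values then measure only the spread between these libraries. In RNA of whole cultures, fewer cells of a kind and less RNA per cell cannot be told apart.

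Against all 6 unexposed libraries, AMPA libraries had 3758 genes higher (28% of those tested) and 3325 lower (24.8%). Differences are of log2(FPKM + 1) with their standard error (SE), tested with limma, and genes are called at a Benjamini-Hochberg adjusted p under 0.05. Changes of at least 2-fold were fewer, 217 higher and 115 lower. Against unexposed replicates 1 to 3, 4060 genes were higher (30.3%) and 3718 lower (27.7%), and against replicates 4 to 6, 3703 were higher (27.6%) and 3177 lower (23.7%). The same direction was called against both sets for 2899 higher genes (21.6%) and 2437 lower genes (18.2%), together 75.3% of the 7083 genes called against all 6. In 3203 genes (23.9%) all 3 AMPA libraries lay above all 6 unexposed ones, and in 2748 (20.5%) they lay below. A further 219 genes were called in opposite directions against the sets, so that the AMPA mean lay between them. The split of higher and lower genes depended on scaling: with FPKM rescaled to TPM, in which every library has the same sum, 2205 were higher and 5189 lower against all 6, 2470 and 5744 against replicates 1 to 3, and 2252 and 4733 against replicates 4 to 6. TPM moved the median log2 difference of all genes against all 6 from 0.01 to -0.14, and list medians below are given without subtracting that shift. After subtracting the all-gene median, p53 targets were at 0.06 with FPKM and 0.06 with TPM. In the same order, apoptosis regulators were at 0.04 and 0.03, and autophagy and lysosome genes at 0.06 and 0.07. Mitochondrial protein quality control was at 0.02 and 0.02, xenobiotic metabolism at 0.09 and 0.08 and fatty acid oxidation at 0.03 and 0.05. Peroxide and superoxide defences were at 0.01 and -0.01.

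**Figure D1:**
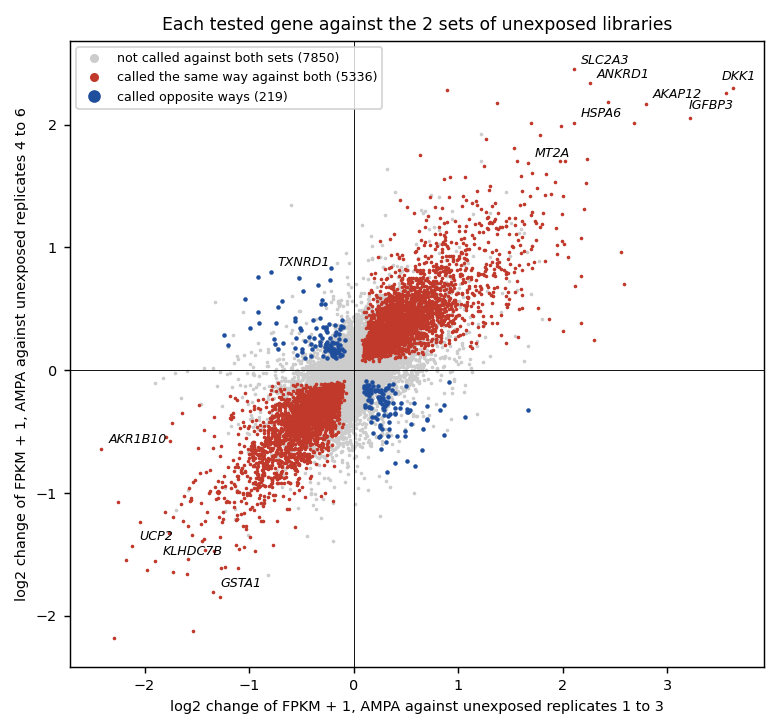
Log2 difference of each of the 13405 tested genes between AMPA and unexposed replicates 1 to 3 (horizontal) and replicates 4 to 6 (vertical), both on the log2(FPKM + 1) scale and both with the same 3 AMPA libraries. The 5336 genes called in the same direction against both sets lie in the lower left and upper right, and the 219 called in opposite directions in the other corners.

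The largest increase among the genes picked by the naming rule was that of DKK1, a secreted inhibitor of Wnt signalling (chr10:52314296-52318042, plus strand, GRCh38). It stood at 2.4, 1.94 and 2.62 FPKM in unexposed replicates 1 to 3, at 7.71, 7.02 and 7.13 in replicates 4 to 6, and at 35.1, 48 and 37.5 with AMPA. Every AMPA library lay above every unexposed one, which the naming rule required of the genes it put first. The log2 difference of DKK1 was 2.96 ± 0.29 (SE, adjusted p = 1.61e-07). IGFBP3, which binds insulin-like growth factors, stood at 1.17, 0.879 and 1.24 FPKM in unexposed replicates 1 to 3, at 4.64, 3.65 and 4.21 in replicates 4 to 6 and at 19.9, 26.6 and 25.2 with AMPA. The unexposed sets did not overlap for IGFBP3, and its log2 difference was 3.56 against the first set and 2.26 against the second. AKAP12, a scaffold that anchors protein kinase A, rose by 2.48, and TNS1, a focal adhesion protein, rose by 1.98 on the log2 scale. CYR61 and ANKRD1, targets of the YAP and TEAD transcription factors that report on cell shape and density, rose by 2.31 and 2.30. The other genes that the naming rule put first were SLC2A3, the glucose transporter GLUT3 (2.28), HSPA6 (2.06), GADD45B, a stress-induced regulator of MAP kinase signalling (1.86), DUSP5, a nuclear phosphatase of ERK (1.85), the linker histone gene HIST1H1C (1.84) and the metallothionein MT2A (1.68).

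Transporters and metabolic enzymes were among the 12 genes that the rule put first for a decrease. UCP2, a carrier of the inner mitochondrial membrane, had 21.3, 20.5 and 18.4 FPKM in unexposed replicates 1 to 3, 11.8, 12.9 and 11.4 in replicates 4 to 6 and 4.27, 3.57 and 3.72 with AMPA, a log2 difference of -1.77 ± 0.17 (adjusted p = 1.05e-07). GPAM, which catalyses the first step of glycerolipid synthesis, had 37.8, 42.1 and 41.2 FPKM, 32.6, 36.8 and 35.1 and 13.9, 12.8 and 12.6 in the same order, a difference of -1.44 ± 0.10. For both genes every AMPA library lay below every unexposed one, as the naming rule required. GSTA1 and GSTA2, closely related glutathione transferases whose reads may be shared, differed by -1.58 and -1.56. AKR1D1, a reductase of bile acid synthesis, differed by -1.42. SLC6A9, the glycine transporter GLYT1 (chr1:43991500-44031467, minus strand), stood at 11.3 to 15.5 FPKM in unexposed libraries and at 4.8, 4.3 and 3.84 with AMPA, a difference of -1.43 ± 0.10. SLC16A13, of the monocarboxylate transporter family, differed by -1.55, the sulfate transporter SLC26A1 by -1.35, the Wnt inhibitor DKK4 by -1.64, the mitochondrial RNA helicase DDX28 by -1.25, KLHDC7B by -1.73 and METTL7A by -1.41.

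The stress programmes were described through 13 lists with 315 distinct tested genes. Against all 6 unexposed libraries 148 of the 315 were higher and 85 lower, 74.0% called, and the same direction held against both sets for 138 and 67. Of all tested genes, 28% were higher and 24.8% lower against all 6, and 21.6% and 18.2% against both sets. The list counts below stand beside these shares. Of the 315, 17 were called in opposite directions against the sets, beside 219 of all 13405 genes. The median log2 difference of the 315 was 0.12 against all 6, beside 0.01 for all genes. The lists moved in different directions: heat shock chaperones, immediate early genes and hypoxia genes were mostly higher. Genes of the unfolded protein response and integrated stress response were mostly lower. The NF-kB and acute phase list (10 higher and 1 lower of 23) and the metal stress list (4 and 1 of 8) leaned higher. The remaining lists were mixed or depended on the set of unexposed cells. Genes named below beyond the naming rule given under processing were chosen after their values were seen.

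**Figure D2:**
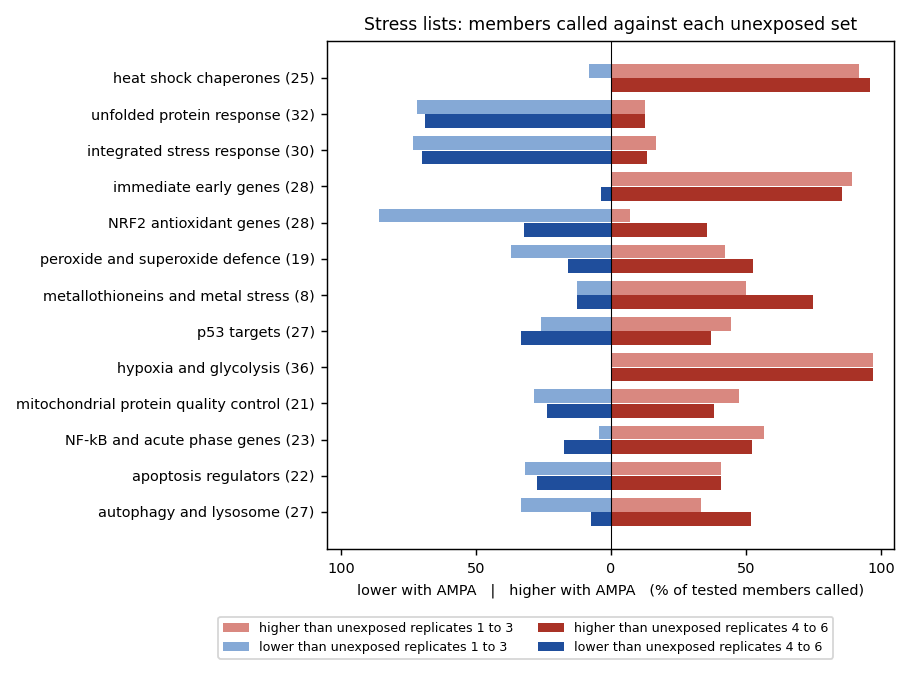
Percentage of the tested members of each of the 13 stress lists that limma called higher (to the right) and lower (to the left) with AMPA, shown separately against unexposed replicates 1 to 3 and against replicates 4 to 6. Hypoxia, heat shock and immediate early lists extend almost wholly to the right and unfolded protein and integrated stress response lists mainly to the left, while the NRF2 list has 24 of 28 members lower against the first set and 9 of 28 against the second.

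Heat shock chaperones rose as a group. Of 27 listed genes 25 were tested, and 23 were higher and 1 lower against all 6 unexposed libraries, with a median log2 difference of 0.53. The 1 lower call was lost without unexposed replicate 1, 3, 4 or 5 or AMPA replicate 2 or 3. All 23 were also higher against each set, and with TPM 18 were higher and 1 lower, with a median of 0.38. In 22 of the 25 the AMPA libraries lay above all 6 unexposed ones. HSF1 binds inverted repeats of the letters GAA, and a script searched the RefSeq promoters (GRCh38.p14, from 250 bases before to 50 after the start, either strand) for GAANNTTC or TTCNNGAA. Only tested genes were looked up. A promoter was found for 22 of the 25 tested members, and 16 of them (72.7%) held a match, beside 1217 of 9092 tested genes with a promoter (13.4%). The stretches of 130 bases before the start are printed for 4 members with matches in that stretch and for HSPH1, which rose with no match there, so that the responding genes can be set side by side. RefSeq gives 3 starts for DNAJB1 and 2 for HSP90AA1, and of these the stretch with most matches is shown, which for DNAJB1 lies inside the gene's span. Letters run 5′ to 3′ on the gene's strand and capitals mark the matches. The stretches are HSPA6 at chr1:161524410-161524539 on the plus strand and, on the minus strand, DNAJB1 at chr19:14518398-14518527, HSP90AA1 at chr14:102087045-102087174, HSPA8 at chr11:123062137-123062266 and HSPH1 at chr13:31162389-31162518.
HSPA6: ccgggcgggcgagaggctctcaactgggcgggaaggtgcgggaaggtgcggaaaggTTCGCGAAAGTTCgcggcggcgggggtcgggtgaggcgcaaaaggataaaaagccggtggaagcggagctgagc
DNAJB1: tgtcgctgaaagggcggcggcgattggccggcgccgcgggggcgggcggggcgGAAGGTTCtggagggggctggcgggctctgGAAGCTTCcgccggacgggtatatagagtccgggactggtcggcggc
HSP90AA1: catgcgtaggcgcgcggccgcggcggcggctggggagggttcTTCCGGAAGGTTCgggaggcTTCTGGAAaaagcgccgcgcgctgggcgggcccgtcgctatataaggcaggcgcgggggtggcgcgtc
HSPA8: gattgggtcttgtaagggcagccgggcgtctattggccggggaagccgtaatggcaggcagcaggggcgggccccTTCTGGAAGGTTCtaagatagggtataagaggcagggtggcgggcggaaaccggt
HSPH1: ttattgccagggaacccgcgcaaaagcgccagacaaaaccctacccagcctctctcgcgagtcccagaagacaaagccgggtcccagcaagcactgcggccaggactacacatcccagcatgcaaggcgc
Matches were 2 in HSPA6, 2 in DNAJB1, 3 in HSP90AA1 and 2 in HSPA8, with some overlapping, and 0 in HSPH1. A match describes the letters only and shows no binding. Shares of promoters with a match, here and for the lists below, describe the lists chosen and say nothing about the exposure. They were not compared between called and other genes.

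Among the inducible HSP70 genes, HSPA6 (chr1:161524540-161526910, plus strand) stood at 1.49, 1.08 and 1.24 FPKM in unexposed replicates 1 to 3, at 1.69, 1.01 and 1.59 in replicates 4 to 6 and at 8.76, 9.19 and 8.34 with AMPA. This strictly stress-induced HSP70 gene was near the filter in unexposed cells, and its log2 difference was 2.06 ± 0.16 (adjusted p = 1.04e-08). HSPA1A, the main inducible HSP70, stood at 20.4 to 27.2 FPKM in unexposed libraries and at 77.8, 85.5 and 74 with AMPA, a difference of 1.67 ± 0.11. Its near-identical copy HSPA1B differed by 1.46, and reads may be shared between the copies. DNAJB1, the HSP40 that delivers substrates to HSP70 (chr19:14514770-14529770, minus strand), stood at 38.2 to 40.4 FPKM in unexposed libraries and at 85.9, 96 and 88.7 with AMPA. The unexposed sets were alike for DNAJB1, and its difference was 1.16 against the first set and 1.19 against the second. HSPH1, a nucleotide exchange factor of HSP70, stood at 12.3, 13.2 and 13.9 FPKM, 7.2, 7.98 and 8.98 and, with AMPA, 23.9, 28 and 25.7, a difference of 0.92 and 1.57 against the sets. HSP90AA1, the inducible cytosolic HSP90, rose by 0.99 and its constitutive relative HSP90AB1 by 0.18. BAG3, which links HSP70 to autophagy, rose by 0.78, the HSP40 DNAJA1 by 0.73, the small heat shock protein gene HSPB1 by 1.66 and the constitutive HSP70 gene HSPA8 by 0.44. HSF1 itself differed by 0.43. The exceptions were SERPINH1, the collagen chaperone of the endoplasmic reticulum, at -0.11, and DNAJB4, which fell against the first set (-0.56) and rose against the second (0.41).

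**Figure D3:**
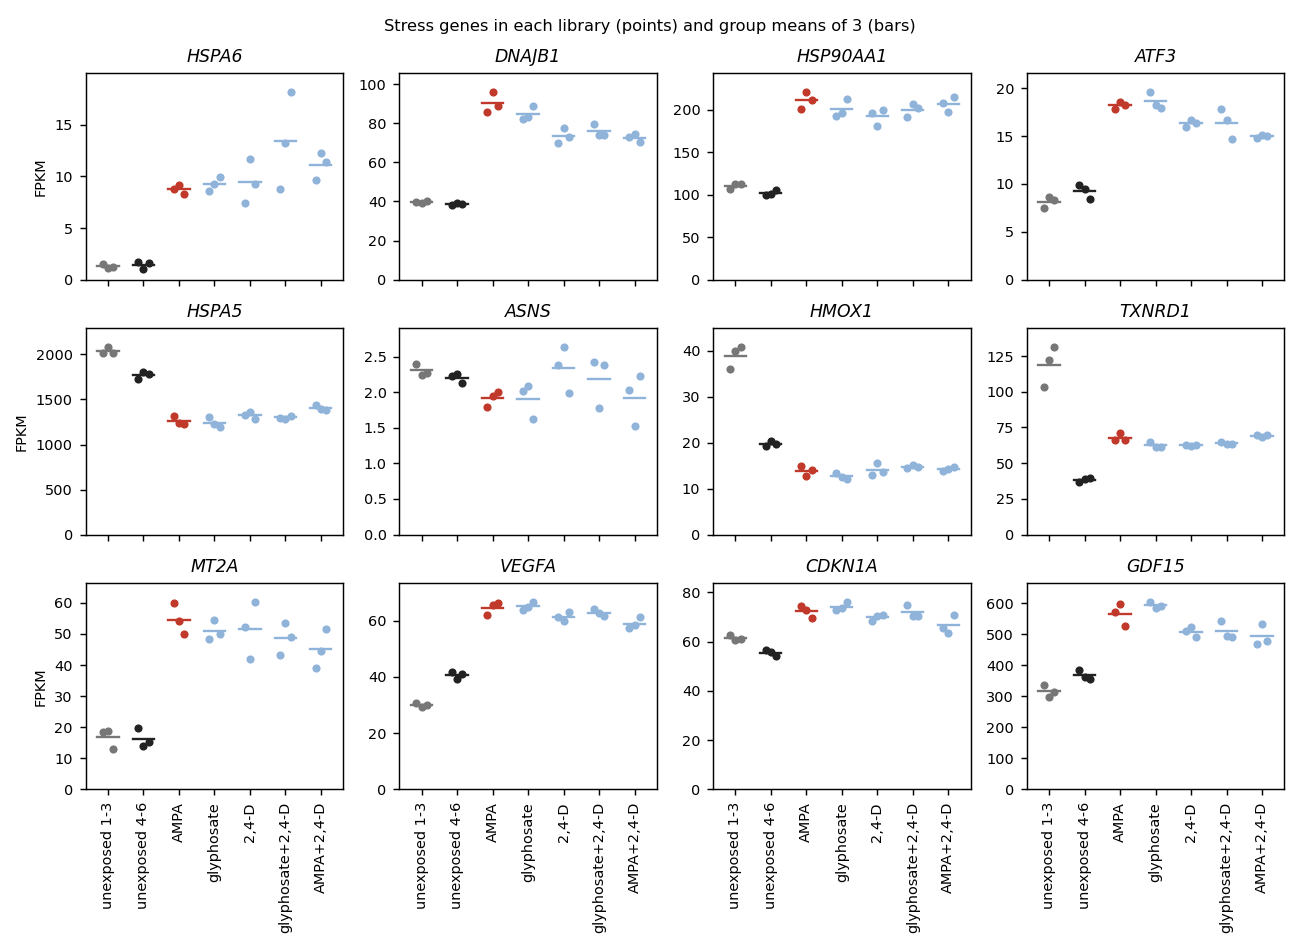
FPKM of 12 stress genes on linear axes from 0, with a point for each library and a bar for the mean of each group of 3: unexposed replicates 1 to 3, unexposed replicates 4 to 6, AMPA and the 4 other exposures. HSPA6, DNAJB1, HSP90AA1, ATF3, MT2A, VEGFA, CDKN1A and GDF15 are higher in all AMPA libraries than in all unexposed ones, HSPA5, HMOX1 and, without passing the test, ASNS are lower, TXNRD1 with AMPA lies between the unexposed sets, and AMPA libraries sit close to those of the other exposures.

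Chaperones of the endoplasmic reticulum went the other way. Of 33 genes of the unfolded protein response 32 were tested, and 4 were higher and 21 lower against all 6, with a median of -0.20. Against both sets 4 were higher and 19 lower, and with TPM 2 were higher and 28 lower, with a median of -0.37. HSPA5, the HSP70 of the endoplasmic reticulum known as BiP, stood at 1731 to 2084 FPKM in unexposed libraries and at 1315, 1240 and 1224 with AMPA, a difference of -0.59 ± 0.06 (adjusted p = 1.04e-07). All 3 AMPA libraries lay below all 6 unexposed ones. HERPUD1, a membrane factor of protein degradation, had 83.8 to 90.8 FPKM in unexposed libraries and 64.9, 57.3 and 59.1 with AMPA, a difference of -0.55 ± 0.05. SDF2L1, a partner of BiP, differed by -0.85, the secreted factor CRELD2 by -0.81, the survival factor MANF by -0.60, the disulfide isomerase PDIA4 by -0.67 and HYOU1, the exchange factor of BiP, by -0.61. The 4 higher members were ERO1A, an oxidase that is also a hypoxia gene (0.85), the cytosolic HSP40 DNAJB2 (0.47), the sensor ATF6 (0.19) and ERO1B (0.19). An ER stress element, CCAAT and CCACG 9 bases apart, was found in 8 of 29 promoters of the list and in 15 of 9092 of all tested genes.

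Most genes of the integrated stress response were lower as well. Of 31 listed genes 30 were tested, and 4 were higher and 22 lower against all 6, with a median of -0.46, and 4 and 20 were called alike against both sets. With TPM, 3 were higher and 24 lower, with a median of -0.63. DDIT3, the transcription factor CHOP that is induced by ATF4, stood at 139.5, 129.6 and 137 FPKM in unexposed replicates 1 to 3, at 104, 109 and 110.2 in replicates 4 to 6 and at 72.6, 62.7 and 66 with AMPA. The AMPA libraries lay below both sets, and the difference was -0.84 ± 0.09 (adjusted p = 5.36e-07). CHAC1, a glutathione-degrading target of ATF4 and CHOP, stood at 4.63 to 6.78 FPKM in unexposed libraries and at 2.24, 2.31 and 1.64 with AMPA, a difference of -1.15 ± 0.13. The pseudokinase TRIB3 differed by -0.62, the cystine transporter SLC7A11 by -0.87, the serine synthesis enzyme PSPH by -0.74 and WARS, a transfer RNA synthetase, by -0.95. NUPR1, a small stress-induced chromatin protein, stood at 16.4, 15.9 and 17.2 FPKM, 12.5, 13.7 and 13 and, with AMPA, 6.28, 6.21 and 5.86, a difference of -1.14 ± 0.08. ATF4 itself differed by -0.11, and its target ASNS, asparagine synthetase, missed the threshold, at -0.16 with an adjusted p of 0.119. The 4 higher members were the glutamine transporter SLC38A2 (1.12), the secreted cytokine GDF15 (0.73), PPP1R15A, which recruits the phosphatase that restores eIF2 alpha (0.47), and STC2 (0.33). GDF15 is also a p53 target and PPP1R15A is induced by several other stresses.

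Immediate early genes were higher. Of 32 listed genes 28 were tested, and 25 were higher and 0 lower against all 6, with a median of 0.80. No member was lower at an unadjusted p under 0.05 by limma either, the lowest being BTG2 at -0.34 with an adjusted p of 0.107, and voom on recovered reads called 24 higher and 0 lower. BTG2 was called lower against the second set (-0.70) and not against the first (0.02 with an adjusted p of 0.855), and 1 member was called lower against all 6 without unexposed replicate 3. Against both sets 24 were higher, and with TPM 23 were higher and 2 lower, with a median of 0.78. FOS, which forms AP-1 with JUN proteins, stood at 1.48, 1.19 and 1.51 FPKM in unexposed replicates 1 to 3, at 1.82, 1.5 and 2.18 in replicates 4 to 6 and at 3.82, 4.15 and 4.1 with AMPA, a difference of 0.95 ± 0.09. JUN differed by 0.65, the zinc finger factor EGR1 by 0.89, JUNB by 1.26 and KLF10, a target of TGF beta signalling, by 1.49. ATF3, a repressor induced by many stresses, stood at 7.48 to 9.9 FPKM in unexposed libraries and at 17.8, 18.5 and 18.3 with AMPA, a difference of 0.99 ± 0.06. ATF3 and DDIT3, both known targets of ATF4, thus differed in direction. The genes of the MAP kinase phosphatases rose too, DUSP1 by 1.33, DUSP5 by 1.85 and DUSP6 by 0.98. The cyclic AMP element TGACGTCA was found in 3 of 22 promoters of the list (13.6%), beside 4.0% over all tested genes.

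Genes that YAP and TEAD induce overlap with this list through CYR61 and CTGF. Of 24 such genes 21 were tested, and 16 were higher and 1 lower, with a median of 0.39 (TPM 15 and 3, the first set 16 and 1, the second 15 and 2). The 1 lower call was lost without AMPA replicate 1, 2 or 3 or unexposed replicate 1, 3, 5 or 6. ANKRD1 (chr10:90912096-90921276, minus strand) stood at 6.46 to 7.54 FPKM in unexposed libraries and at 33.1, 43.2 and 40 with AMPA, a difference of 2.30 ± 0.07. AXL, a receptor tyrosine kinase, rose by 1.54 and WWC1, an upstream regulator of the pathway, by 0.68. AMOTL2, a feedback inhibitor and target of YAP, differed by -0.13.

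Hypoxia and glycolysis genes rose as a whole list. Of 37 listed genes 36 were tested, and 35 were higher and 0 lower against all 6, with a median of 0.96. The median was 1.20 against the first set and 0.79 against the second, and 34 genes were called higher against both. With TPM 32 were higher and 0 lower, with a median of 0.85. The 1 member not called was PFKP, at 0.21 with an adjusted p of 0.22, so that none was lower at an unadjusted p under 0.05 either, and voom on recovered reads also called 35 higher and 0 lower. VEGFA, the angiogenic factor induced by HIF1, stood at 30.7, 29.2 and 29.9 FPKM, 41.8, 39.2 and 41 and, with AMPA, 62.1, 65.7 and 66.1, a difference of 0.87 ± 0.09. SLC2A3 (chr12:7919230-7936275, minus strand) stood at 9.17 to 13.7 FPKM in unexposed libraries and at 52.3, 57.2 and 58.5 with AMPA, a difference of 2.28 ± 0.10. Within glycolysis itself, hexokinase HK2 rose by 1.5, aldolase ALDOA by 0.83, TPI1 by 1.08, GAPDH by 0.94, PGK1 by 1.06 and lactate dehydrogenase LDHA by 1.13. PFKFB3, which makes the activator of phosphofructokinase (chr10:6144934-6254644, plus strand), stood at 3.04 to 4.04 FPKM in unexposed libraries and at 12.7, 14 and 13.2 with AMPA, a difference of 1.66 ± 0.07. Among HIF feedback genes the prolyl hydroxylases EGLN1 and EGLN3 rose by 0.77 and 1.38 and the histone demethylase KDM3A by 0.94. The secreted peptide ADM rose by 1.33 and the mitophagy receptors BNIP3 and BNIP3L by 0.98 and 0.99. The core of the hypoxia element, ACGTG on either strand, was found in 22 of 32 promoters of the list (68.8%) and in 2981 of 9092 of all tested genes (32.8%).

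NRF2 genes depended on which unexposed cells were the reference. Of 29 listed genes 28 were tested: 2 were higher and 24 lower against the first set, with a median of -0.66, while 10 were higher and 9 lower against the second, with a median of -0.02 that had the other sign, 0.01, without AMPA replicate 2. Against all 6, 2 were higher and 13 lower (TPM 1 and 18, and 2 and 6 in a fit of AMPA and unexposed libraries alone). Of the 28, 8 were called in opposite directions against the sets, beside 219 of all 13405 genes. TXNRD1, thioredoxin reductase (chr12:104215779-104350305, plus strand), stood at 104, 122 and 131 FPKM in unexposed replicates 1 to 3, at 36.8, 39 and 39.7 in replicates 4 to 6 and at 66.1, 71.1 and 66.4 with AMPA. All AMPA libraries lay between the sets, with differences of -0.79 and 0.80. NQO1, a quinone reductase and standard NRF2 target, stood at 321, 336 and 335 FPKM, 215, 229.8 and 222 and, with AMPA, 237, 236 and 244, and differed by -0.47 and 0.10 from the sets. The second NQO1 call was lost without unexposed replicate 4 (adjusted p = 0.0808) or AMPA replicate 3 (adjusted p = 0.0609), and TPM turned it to -0.04. HMOX1, haem oxygenase, stood at 36, 40 and 40.8 FPKM, 19.2, 20.4 and 19.6 and, with AMPA, 14.8, 12.7 and 14, and was lower against both sets, with differences of -1.43 and -0.48. SRXN1, sulfiredoxin, differed by -1.18 and -0.21, the latter call being lost when AMPA and the unexposed set were fitted by themselves (adjusted p = 0.057), with voom (adjusted p = 0.069) and without unexposed replicate 4, unexposed replicate 5 or AMPA replicate 3, and SLC7A11 by -1.08 and -0.67. MAFG, a partner of NRF2, was higher against both sets (0.28). KEAP1, the inhibitor of NRF2, differed by -0.43 and NFE2L2, which encodes NRF2, by 0.09 with an adjusted p of 0.0865.

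Peroxide and superoxide defences outside NRF2 were mixed. Of 19 genes 8 were higher and 5 lower, with a median of 0.02 that turned to -0.15 with TPM. Against the first set 8 were higher and 7 lower, with a median of -0.02, and against the second 10 and 3, with a median of 0.15. SOD2, the mitochondrial superoxide dismutase, stood at 5.27 to 6.66 FPKM in unexposed libraries and at 7.9, 7.67 and 8.22 with AMPA, a difference of 0.32 ± 0.05. GPX3, a secreted glutathione peroxidase, rose by 0.71 and GPX4, which reduces lipid peroxides, by 0.48, while the mitochondrial glutaredoxin GLRX2 changed by -0.83 and MSRB1, a methionine sulfoxide reductase, by -0.63. Catalase, CAT, differed by -0.14.

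Metallothioneins, small proteins that bind zinc and copper, were tested for few members. Of 12 genes of metal stress 8 passed the filter, and 4 were higher and 1 lower (TPM 3 and 1, the first set 4 and 1, the second 6 and 1). The 1 lower call was lost without AMPA replicate 1 or 3. MT2A stood at 18.3, 18.6 and 13.2 FPKM in unexposed replicates 1 to 3, at 19.8, 13.9 and 15.4 in replicates 4 to 6 and at 59.8, 54.1 and 49.8 with AMPA. Every AMPA library lay above every unexposed one, as the naming rule required, with a difference of 1.68 ± 0.13 (adjusted p = 1e-08). MT1G rose by 1.07 and MT1E by 0.92, and MT1X did not pass the filter. The zinc sensor MTF1 was at -0.04 with an adjusted p of 0.675 and the zinc exporter SLC30A1 at 0.10 with an adjusted p of 0.229.

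Targets of p53 moved both ways. Of 28 genes 27 were tested, and 11 were higher and 8 lower, with a median of 0.08 that turned to -0.08 with TPM (5 higher and 11 lower). Against the first set 12 were higher and 7 lower, and against the second 10 and 9. CDKN1A, the p21 cell cycle inhibitor, stood at 54 to 62.7 FPKM in unexposed libraries and at 74.3, 72.9 and 69.6 with AMPA, a difference of 0.30 ± 0.05 that was 0.14 with TPM and then not called (adjusted p = 0.0573). MDM2, the ubiquitin ligase of p53, differed by 0.20 ± 0.05, and by 0.04 with TPM (adjusted p = 0.55). GADD45A, a DNA damage and stress gene, rose by 0.64, PLK2 by 1.05 and GDF15 by 0.73, whereas TP53I3 changed by -1.05, TP53INP1 by -0.61 and BAX, which permeabilises mitochondria, by -0.36. Genes that regulate apoptosis were mixed as well: of 22 tested 9 were higher and 7 lower, and the median of 0.05 turned to -0.10 with TPM. Against the sets 9 were higher and 7 lower, and 9 and 6. The protective BCL2L1 and MCL1 rose by 0.39 and 0.46, the inhibitor XIAP differed by -0.19, and the initiator caspases CASP8 and CASP9 by -0.30 and -0.23.

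The inflammatory list leaned higher, while the mitochondrial and lysosomal lists depended on scaling or on the unexposed set. Of 31 genes of NF-kB and the acute phase 23 were tested. Of these 10 were higher and 1 lower, 13 and 1 against the first set and 12 and 4 against the second. Their median was 0.17, and 0.04 with TPM (6 higher and 3 lower). After subtracting the all-gene median it was 0.16 with FPKM and 0.18 with TPM. HAMP, the iron hormone hepcidin, rose by 1.17, the cytokine feedback inhibitor SOCS3 by 0.80 and the chemokine CCL20 by 1.76, while LCN2, a siderophore binder, changed by -1.48. The fibrinogen genes FGA, FGB and FGG were called higher against the first set (0.40, 0.38 and 0.35) and lower against the second (-0.76, -0.26 and -0.36). Of 21 genes of mitochondrial protein quality control 7 were higher and 7 lower, with a median of 0.03 that turned to -0.12 with TPM. Against the first set 10 were higher and 6 lower, with a median of -0.06, and against the second 8 and 5, with a median of 0.07, and without AMPA replicate 2 or 3 the 7 lower became 4. HSPE1, the mitochondrial co-chaperonin, rose by 0.53 and DNM1L, which divides mitochondria, by 0.29, while the mitochondrial HSP40 DNAJA3 changed by -0.64 and the protease LONP1 by -0.22. Of 27 autophagy and lysosome genes 11 were higher and 2 lower, with a median of 0.08 that turned to -0.07 with TPM (4 higher and 6 lower). The reference set moved this list: 9 were higher and 9 lower against the first set, with a median of 0.01, and 14 and 2 against the second, with a median of 0.16. GABARAPL2 and ATG14, which act in autophagosome formation, rose by 0.39 and 0.43 and the protease CTSB by 0.56. SQSTM1, the autophagy receptor p62, fell against the first set (-0.52) and rose against the second (0.35).

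AMPA libraries were then compared with the mean of the 4 other exposures, to find stress genes that differed between exposures. Limma called 24 genes higher with AMPA (0.179% of 13405) and 10 lower (0.0746%), none by 2-fold, and the lowest adjusted p was 0.0189. For 97.0% of genes the 95% interval of this difference lay within 2-fold either way. With TPM 2 genes were higher and 50 lower, and the median of all genes moved from 0.01 to -0.04. Of the 315 stress genes 5 were higher and 1 lower, and 96 had an unadjusted p under 0.05, as had 1812 of all 13405 genes. The 34 calls depended on single libraries: none was made without AMPA replicate 2 or without AMPA replicate 3, 13 without AMPA replicate 1, 13, 12 and 61 without glyphosate replicates 1, 2 and 3, 52 without 2,4-D replicate 3, 21 and 231 without AMPA+2,4-D replicates 1 and 2, and 22 without glyphosate+2,4-D replicate 1. These comparisons and those with unexposed cells share the AMPA libraries.

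The 5 higher stress genes came from different programmes. DNAJB1 stood at 85.9, 96 and 88.7 FPKM with AMPA, at 82.1, 83.4 and 88.7 with glyphosate, at 69.8, 77.8 and 72.8 with 2,4-D, at 79.8, 74.1 and 74 with glyphosate and 2,4-D and at 73, 74.7 and 70.2 with AMPA and 2,4-D. The range over the other exposures, 69.8 to 88.7, overlapped with AMPA, and the difference was 0.23 ± 0.04 (adjusted p = 0.0189), small beside the 1.18 against unexposed cells. PFKFB3 stood at 12.7, 14 and 13.2 FPKM with AMPA and at 8.88 to 14.3 with the others, a difference of 0.30 ± 0.06 (adjusted p = 0.0382). PPP1R15A stood at 49.1, 51.1 and 49 against 36.6 to 50.9, a difference of 0.16 ± 0.03 (adjusted p = 0.0237). CTSB, the lysosomal protease cathepsin B, stood at 213, 222 and 219.7 against 177 to 212, and here all AMPA libraries lay above all others (difference 0.17 ± 0.03, adjusted p = 0.0375). MFN2, which fuses mitochondria, stood at 53.3, 53.8 and 55 against 47.5 to 53.4, a difference of 0.12 ± 0.02 (adjusted p = 0.0265). The 1 lower stress gene was NUPR1 (chr16:28532708-28539174, minus strand), with 6.28, 6.21 and 5.86 FPKM with AMPA, 6.76, 6.52 and 5.89 with glyphosate and 7.33, 7.63 and 6.92 with 2,4-D, 8.59, 7.7 and 8.38 with glyphosate and 2,4-D and 7.02, 6.96 and 7.3 with AMPA and 2,4-D. Its difference was -0.21 ± 0.04 (adjusted p = 0.0396), in the direction of its decrease against unexposed cells. All 6 calls were lost in a fit of the AMPA and other exposed groups alone (adjusted p 0.0617 to 0.0888), with the replicate number as a block, without AMPA replicate 2 (0.0997 to 0.175), without AMPA replicate 3 (0.143 to 0.209) and against only the 3 exposures without AMPA (0.0773 to 0.284). Of the 6 calls 5 were lost without AMPA replicate 1, 4 without glyphosate replicate 2, 3 without glyphosate replicate 1 or AMPA+2,4-D replicate 1, 2 without 2,4-D replicate 2, AMPA+2,4-D replicate 3 or glyphosate+2,4-D replicate 3, and 1 without 2,4-D replicate 1 or glyphosate+2,4-D replicate 1. TPM lost 5 of the 6, among them DNAJB1 (adjusted p = 0.103) and PPP1R15A (0.212), and kept NUPR1.

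**Figure D4:**
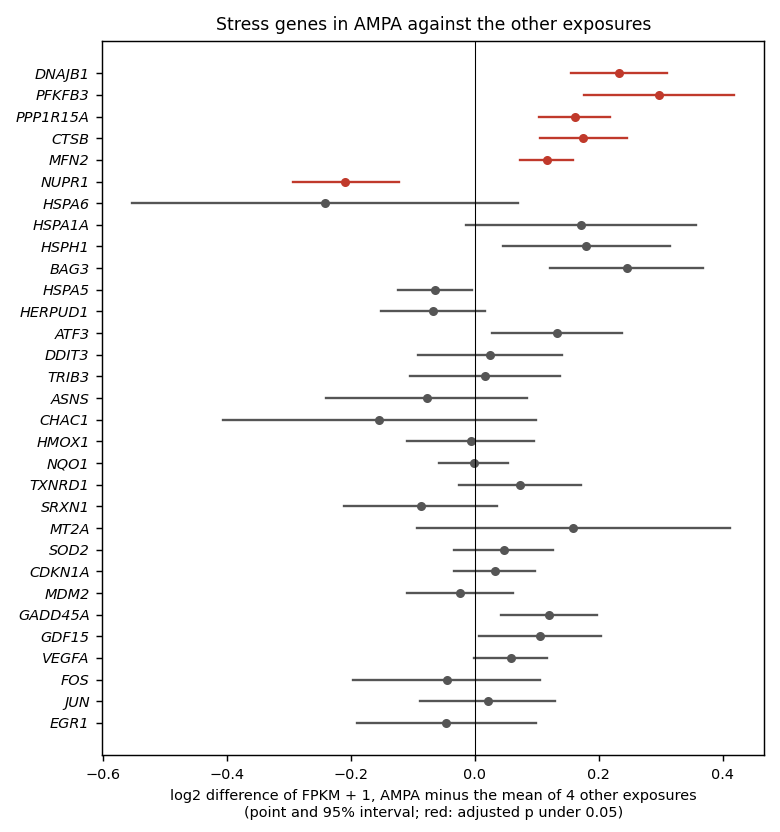
Log2 difference, with its 95% interval, between AMPA and the mean of the other 4 exposures for 31 stress genes on the log2(FPKM + 1) scale. Most intervals cross 0, and none of the differences reaches 2-fold.

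The other stress genes differed by less, or without passing the test. All 36 hypoxia and glycolysis genes had a difference from the other exposures above 0, as did 52.5% of all tested genes. Their median was 0.13 beside 0.01 for all genes, while only PFKFB3 was called. Against glyphosate alone the median of this list was 0.05, with 0 members called. Of the 25 heat shock genes 20 lay above 0 and 5 below, and the gene that rose most against unexposed cells, HSPA6, was among those below, at -0.24 with an adjusted p of 0.509. BAG3 was at 0.24 with an adjusted p of 0.0758, and was called with voom on recovered reads. In 7 stress genes every AMPA library lay above all 12 libraries of the other exposures, as it did for 95 of all genes tested (0.709%), and in none did every AMPA library lie below, as it did for 45 of all genes (0.336%). The 7 were CTSB, the glycolytic enzyme ENO1, the HSP90 partner FKBP4, the adhesion molecule ICAM1, KLF10, the NRF2 target OSGIN1 and the YAP target CTGF. Of these 7 only CTSB passed the test, and the others had adjusted p-values of 0.067 (ENO1) to 0.193 (KLF10).

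Several stress genes called against unexposed cells are given here beside the other exposures, chosen to cover the programmes. HSPA6 had a mean of 8.76 ± 0.425 FPKM (SD, n = 3) with AMPA, 9.29 ± 0.673 with glyphosate, 9.48 ± 2.12 with 2,4-D, 13.4 ± 4.71 with glyphosate and 2,4-D and 11.1 ± 1.34 with AMPA and 2,4-D. The libraries of glyphosate with 2,4-D ran from 8.76 to 18.2 and those with AMPA lay within the range of the other exposures. DDIT3 had 67.1 ± 5.01, 66.6 ± 6.45, 64.5 ± 0.849, 63.3 ± 2.54 and 69.7 ± 6.64 in the same order, and its difference from the other exposures had a 95% interval of -0.09 to 0.14. VEGFA had 64.6 ± 2.2, 65.2 ± 1.52, 61.4 ± 1.66, 62.9 ± 1.21 and 58.9 ± 2.02, with an interval of 0.00 to 0.12. MT2A and HMOX1 had intervals of -0.09 to 0.41 and -0.11 to 0.10, and HSPA5 one of -0.12 to 0.00 that excluded 0 without passing the adjusted test (adjusted p = 0.331). TXNRD1, which lay between the unexposed sets with AMPA, also lay between them in the other exposures, at 61.1 to 70.1 FPKM, with an interval of -0.03 to 0.17.

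Outside the stress lists, ANKRD1 had the largest difference of a protein-coding gene called higher, with 33.1, 43.2 and 40 FPKM with AMPA, 33.6, 34.6 and 38.1 with glyphosate and 25.6 to 38.1 over all other exposed libraries. Its difference was 0.37 ± 0.06 (adjusted p = 0.0221). The ribosomal protein gene RPS28 (0.33), the Notch ligand JAG1 (0.25), TP53INP2, which acts in autophagy (0.23), the kinase PIM1 (0.22) and the phosphate transporter SLC20A1 (0.20) were also higher. The lower genes were led by TECTB, with 1.49, 1.41 and 1.14 FPKM with AMPA and 1.3 to 3.14 with the others, a difference of -0.54 ± 0.08 (adjusted p = 0.0189). HOGA1, an enzyme of hydroxyproline breakdown, differed by -0.35, the ubiquitin ligase TRIM2 by -0.25 and BCAT1, which transaminates branched-chain amino acids, by -0.17. In ANKRD1, RPS28, PFKFB3, DNAJB1, PIM1, TECTB, TRIM2 and NUPR1, the 8 genes plotted by library, the AMPA libraries overlapped with the glyphosate libraries. Thus PFKFB3 had 13.4, 11.9 and 14.3 FPKM with glyphosate, 10.8, 10.6 and 9.46 with 2,4-D, 10.3, 8.88 and 9.81 with glyphosate and 2,4-D and 9.66, 9.99 and 9.53 with AMPA and 2,4-D, and TECTB had 1.74, 1.36 and 1.3, 2.97, 3.07 and 2.26, 3.14, 3.05 and 3.04 and 2.76, 2.82 and 2.14. The libraries of the 3 exposures that held 2,4-D did not overlap with AMPA in any of the 8 genes.

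**Figure D5:**
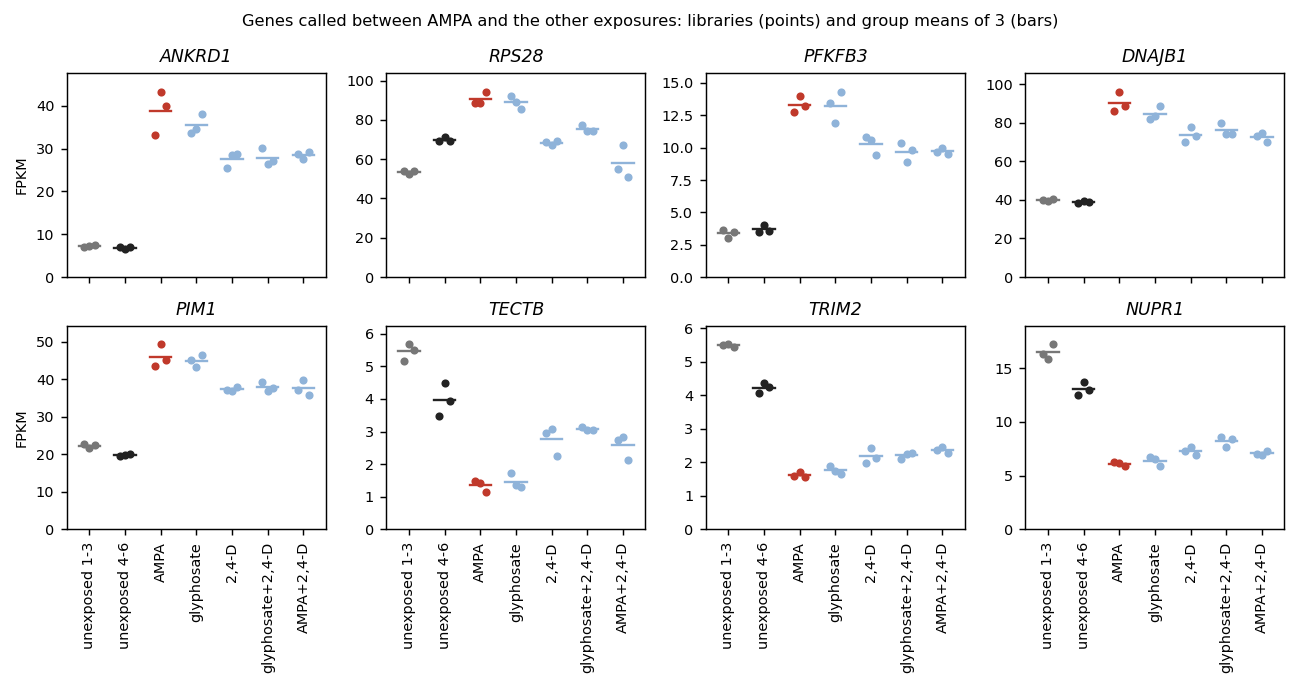
FPKM of 8 genes that limma called between AMPA and the mean of the other exposures, with a point for each library and a bar for each group mean of 3, on linear axes from 0. In each gene the AMPA libraries overlap with those of glyphosate, and ANKRD1, RPS28, PFKFB3, DNAJB1 and PIM1 are higher and TECTB, TRIM2 and NUPR1 lower with AMPA than in all libraries of the exposures that held 2,4-D.

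AMPA and its parent compound glyphosate were given at different molar doses, 34 and 5.6 µM, and their values are set side by side for that reason. Limma called 0 genes between them (0%), with a lowest adjusted p of 0.823; 689 genes had an unadjusted p under 0.05, and voom on recovered reads also called 0. The 95% interval of the difference lay within 2-fold for 95.2% of genes, and among stress genes the largest difference was 0.29. HSPA6 stood at 8.76, 9.19 and 8.34 FPKM with AMPA and 8.62, 9.3 and 9.96 with glyphosate, with a 95% interval of the log2 difference of -0.47 to 0.32. The interval was -0.01 to 0.19 for DNAJB1, -0.06 to 0.10 for HSPA5, -0.13 to 0.16 for DDIT3, -0.09 to 0.06 for VEGFA, -0.23 to 0.42 for MT2A and -0.19 to 0.21 for SLC6A9. The glyphosate libraries had means of 70.9 ± 4.55 FPKM for HSPA1A (SD, n = 3) and 18.6 ± 0.87 for ATF3, beside 79.1 ± 5.86 and 18.2 ± 0.362 with AMPA. These comparisons do not show that the compounds act alike, since the doses differ and smaller differences fall within the intervals.

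Between AMPA and 2,4-D, 7 genes were called (0.0522%), of which 6 were higher with AMPA, among them ANKRD1 (0.47), RPS28 (0.40), PIM1 (0.29) and, as the 1 stress gene, DNAJB1 (0.29). The 1 lower gene was TECTB (-0.68). The 7 calls became 12 without AMPA replicate 1, 0 without AMPA replicate 2, AMPA replicate 3 or 2,4-D replicate 1, 1 without 2,4-D replicate 2 and 3 without 2,4-D replicate 3, and 0 in a limma fit of these 2 groups alone (1423 at an unadjusted p under 0.05), and with TPM 1 gene was higher and 15 lower. Between AMPA and the mixture of glyphosate with 2,4-D, 80 genes were called (0.597%), 50 higher and 30 lower with AMPA, and of the stress genes 7 were higher and 2 lower. The stress genes were led by PFKFB3 (0.42), DNAJB1 (0.24), CTSB (0.23) and the glucose transporter SLC2A1 (0.23) among the higher ones, and were LCN2 (-0.37) and NUPR1 (-0.37) among the lower ones. The 80 calls became 48, 5 and 0 without AMPA replicates 1, 2 and 3, and 15, 16 and 6 without replicates 1, 2 and 3 of the mixture. A limma fit of these 2 groups alone called 0 of 13405 genes (1695 at an unadjusted p under 0.05), voom called 164, and with TPM 3 genes were higher and 8 lower. Between AMPA and its own mixture with 2,4-D, 1282 genes were called (9.56%), 842 higher and 440 lower with AMPA, and of the stress genes 58 were higher and 23 lower. Higher with AMPA alone were, among others, DUSP5 (0.56), CYR61 (0.45), the lipase inhibitor ANGPTL4 (0.52), PFKFB3 (0.41), TPI1 (0.40), HSPB1 (0.39) and PPP1R15A (0.37). Lower were AKR1C2, an NRF2 target (-0.45), TP53INP1 (-0.37), SLC7A11 (-0.28), HSP90B1, the HSP90 of the endoplasmic reticulum (-0.25), and HSPA5 (-0.16). The count of 1282 fell to 1 in a fit of these 2 groups alone, to 417 without AMPA+2,4-D replicate 1, to 593 without AMPA+2,4-D replicate 3 and to 684, 831 and 741 without AMPA replicates 1, 2 and 3, and TPM reversed its split to 445 higher and 878 lower. Outside the stress lists GSTA2 differed by -0.96 and MT-ATP8 by -0.74.

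Metabolic genes were also compared with unexposed cells, against which 28% of all tested genes were higher and 24.8% lower. Glyphosate is a derivative of glycine and AMPA is a phosphonate of methylamine, and enzymes of glycine, serine and one-carbon metabolism were therefore listed. They were mostly lower: of 28 tested 4 were higher and 19 lower, with a median of -0.37, and with TPM 2 and 21. Against the first set 7 were higher and 19 lower, and against the second 2 and 20. The 4 higher became 2 without AMPA replicate 2 or 3 and 1 in a fit of AMPA and unexposed libraries alone. The enzymes of serine synthesis were lower, PHGDH by -0.45, PSAT1 by -0.61 and PSPH by -0.74. In the methionine cycle MAT1A, the liver enzyme that makes S-adenosylmethionine, changed by -1.02 and GNMT, which methylates glycine, by -1.05, while AHCY rose by 0.28. SARDH, which demethylates sarcosine to glycine, changed by -1.06 and the glycine cleavage protein GCSH by -0.46. AGXT, which converts glyoxylate to glycine, was higher against the first set (0.59) and lower against the second (-0.78). PHGDH, PSAT1 and PSPH are also members of the integrated stress response list.

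Of 33 genes of xenobiotic metabolism 18 were tested, and 8 were higher and 5 lower, with a median of 0.10 that turned to -0.06 with TPM. Against the first set 7 were higher and 8 lower, and against the second 10 and 6. CYP1A1, the target of the aryl hydrocarbon receptor, stood at 3.96, 4.79 and 5.26 FPKM, 1.45, 1.86 and 1.62 and, with AMPA, 4.67, 4.93 and 5.36, and its difference of 0.63 ± 0.25 was called, but not in 10 of the other settings. It was 0.08 with an adjusted p of 0.556 against the first set alone. POR, which supplies electrons to cytochromes P450, rose by 0.35 and CYP2D6 changed by -0.85. Among genes of lipid synthesis and storage 8 of 26 were higher and 11 lower (TPM 3 and 15), and 7 and 12 against each set. The 8 became 4 without AMPA replicate 1, 5 without AMPA replicate 3 or unexposed replicate 2, and 3 in a fit of AMPA and unexposed libraries alone. PLIN2, the coat protein of lipid droplets, rose by 1.34 and ACSL3, which activates fatty acids there, by 0.73, while GPAM changed by -1.44 and MLXIPL, the carbohydrate-responsive factor of lipogenesis, by -1.07. Of 23 genes of cholesterol synthesis and uptake 5 were higher and 8 lower, with a median of -0.09 (TPM 2 and 14, median -0.26). Against the first set 4 were higher and 7 lower, and against the second 5 and 10. DHCR7 was among the higher ones, at 0.68. Of 22 genes of fatty acid oxidation 10 were higher and 8 lower, with a median of 0.05 that turned to -0.09 with TPM. The median was 0.08 against the first set, with 10 higher and 5 lower, and -0.05 against the second, with 7 and 9. PPARA, its main regulator in liver, changed by -0.75 and ACADVL rose by 0.54.

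Hepatocyte genes moved both ways. Of 29 tested 15 were higher and 7 lower, and 20 and 7 against the first set and 13 and 11 against the second, with a median of 0.30 against all 6, and of 0.07 against replicates 4 to 6 that turned to -0.07 with TPM. Transthyretin, TTR, rose by 0.88, apolipoprotein APOA1 by 0.84 and transferrin, TF, by 0.79, while apolipoprotein APOB changed by -0.45 and antithrombin, SERPINC1, by -0.86. The regulators HNF4A and CEBPA changed by -0.84 and -1.17 and the bile acid receptor NR1H4 by -0.93, while FOXA2 rose by 0.65. Among cell cycle genes GINS2, CDK2 and MCM7 of DNA replication rose by 0.82, 0.53 and 0.54, and the mitotic genes CDC20, PLK1 and AURKA changed by -0.80, -0.48 and -0.40. Whether replication and mitotic genes differed as classes was not tested. Of 33 cell cycle genes 16 were higher and 6 lower against all 6, with a median of 0.18 (TPM 11 and 9). Against the first set 22 were higher and 6 lower, and 12 and 10 against the second.

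Cytosolic ribosomal protein genes were nearly uniform, with 55 of 56 higher and 0 lower against all 6 and against each set, a median of 0.51, 54 higher with TPM and, with voom on recovered reads, 55 higher and 0 lower. The 1 not called was RPS10, at -0.02 with an adjusted p of 0.892, and many of these genes have processed pseudogenes to which reads may have been assigned. RPS3A and RPS4X of the small subunit rose by 0.68 and 0.63, and RPL10 and RPL15 of the large subunit by 0.44 and 0.54. Nuclear genes of oxidative phosphorylation were higher in 28 of 36 and lower in 2, with a median of 0.29 (TPM 18 and 4), the higher ones including UQCRC1 of complex III (0.45) and COX6A1 of complex IV (0.66). Of the 13 protein genes encoded in mitochondrial DNA 0 were higher and 4 lower against all 6 by limma (0 and 5 with voom), 1 and 4 against the first set and 2 and 3 against the second, the lower ones including MT-CO3 (-0.52) and MT-ND1 (-0.34). Against the sets apart 29 nuclear genes were higher and 1 lower, and 24 and 2, and without AMPA replicate 1, 2 or 3 the 2 lower calls became 1, 1 and 0. The share of FPKM in ribosomal protein genes rose with these values, from 6.73 to 7.87% in unexposed cells to 9.17 to 9.5% with AMPA, and its part in other results was not tested.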

How the data were processed

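The labels describe total RNA of C3A cells sequenced in 21 libraries. The submitters' processing notes name HISAT2 2.0.5, featureCounts 1.5.0-p3 and the GRCh38 build. The deposited FPKM values come as 1 table per group. How FPKM were scaled, which genes were kept and whether strand was used are not given in the sources used here, so antisense or overlapping genes and near-identical copies (HSPA1A and HSPA1B, GSTA1 and GSTA2, ribosomal protein pseudogenes) are uncertain. FPKM times gene length gave whole read numbers, to within 0.1 read, for 100% of values. The ratio of the total implied by the scaling to the reads recovered was 1.029 to 1.082 without exposure and 0.942 to 0.966 with AMPA.

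Genes in all tables with 1 FPKM or more in 3 libraries were fitted on log2(FPKM + 1), pseudocount 1, with limma 3.58.1 (trend, Benjamini-Hochberg adjustment over all genes) in R 4.3.3, with tables read by the data.table package (version 1.17.8). The comparison with all unexposed libraries used 6 groups and the others 7, with the unexposed sets apart. Nothing was taken from 45 genes that passed the filter but were absent from a table, 0 of them protein-coding. The fits were tested on simulated data.

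The members, gene lists and rules were chosen with earlier results of these data known. The rule named the 12 highest and 12 lowest protein-coding genes against both sets with at least 5 FPKM in a group. These had to be called in the same direction against all unexposed libraries and against each set. All their AMPA libraries also had to lie outside all unexposed ones. Further named were the 10 largest each way against the other exposures and 3 each way against each exposure. Up to 4 members of each list by smallest p, called stress genes and a list of stress genes always named were added. Other settings were no filter, TPM, a pseudocount of 0.1, scaling by the median of ratios, the compared groups alone, the replicate number as a block, voom on recovered reads, only the exposures without AMPA, and each library left out in turn. Values of some genes that the rule names are not reported here.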

Additional observations from a re-analysis of the deposited data

Results flagged for a closer look

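Of 157 genes followed, 3 had an unexposed library far from the other 5 by Dixon's test, which flags about 1 group in 20 by chance. CLPP, a subunit of a mitochondrial protease, stood at 11.2 FPKM in unexposed replicate 3 and at 12.7 to 13.5 in the other unexposed libraries. HERPUD1 stood at 83.8 FPKM in unexposed replicate 1 and at 88.7 to 90.8 in the others, all above the AMPA libraries. MDM2 stood at 34.1 FPKM in unexposed replicate 3 and at 36.5 to 37.7 in the others.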

How the results depend on the processing

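Counts of called genes against all 6 unexposed libraries and against replicates 1 to 3 stayed within 1.5 times under every setting run. Against replicates 4 to 6 the count of 6880 became 4411 with the replicate block, a fit in which replicate 6 alone stands for that set. The numbers do not pair the libraries, since deviations of same-numbered libraries correlated at -0.06 to 0.05, and the block left 7607 calls against replicates 1 to 3, which is also what it leaves of the comparison with all 6, 0 against glyphosate and 927 against AMPA+2,4-D. The 34 calls against the other exposures became 52 with TPM, 1 with the compared groups alone, 2 with the replicate block, 228 with voom, 2 against only the 3 exposures without AMPA and 0 to 231 when single libraries were left out. The 7 calls against 2,4-D became 4 without a filter, 16 with TPM, 0 with the compared groups alone, 4 with the replicate block, 77 with voom and 0 to 12 when single libraries were left out. The 80 calls against glyphosate+2,4-D became 37 without a filter, 11 with TPM, 0 with the compared groups alone, 31 with the replicate block, 164 with voom and 0 to 48 when single libraries were left out. The 1282 calls against AMPA+2,4-D became 1 with the compared groups alone and 417 to 1903 when single libraries were left out. A fit of 2 groups of 3 has fewer libraries to estimate the spread, and the part of this in the lower counts was not tested. NQO1 against replicates 4 to 6 turned to -0.04 with TPM (adjusted p = 0.273), and TXNRD1 against all 6 turned to -0.79 with the replicate block (adjusted p = 2.57e-07), where the comparison rests on unexposed replicates 1 to 3 because no other group has the numbers 4 to 6. The cause of the other changes was not tested. Of the 157 genes followed, 148 were called against all 6 and 9 of these were lost in some setting, as were 9 of 149 against replicates 1 to 3, 13 of 150 against replicates 4 to 6 and all 23 against the other exposures. The 95% interval of a log2 difference reached, in the median gene, 0.158 to either side against all 6 unexposed libraries and 0.12 against the other exposures.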

Other observations

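RNA classes outside protein-coding genes were counted against all 6 unexposed libraries, where 28% of all genes were higher and 24.8% lower. Of 835 antisense genes 78 were higher (9.3%) and 172 lower (20.6%), and of 436 lincRNA genes 72 were higher (16.5%) and 119 lower (27.3%). Small nucleolar RNA genes, which guide the modification of ribosomal RNA, were higher in 25 of 131 (19.1%) and lower in 4 (3.1%), with a median log2 difference of 0.28 beside 0.01 for protein-coding genes. The class misc_RNA had a median of 0.23, with 13 of 97 higher (13.4%) and 2 lower (2.1%). The medians of miRNA and snRNA genes were 0.03 and 0.07. Pseudogenes were higher in 169 of 668 (25.3%), near the share of all genes, and lower in 82 (12.3%). Strand use in counting was not given in the sources used here, so antisense values cannot be told apart from those of the genes opposite.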
